A study of Mus musculus with 6 samples.

Results

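The genes described here are 10 genes of steroid hormone production in the Leydig cell, the cell between the seminiferous tubules that makes testosterone: Star, Cyp11a1, Hsd3b1, Hsd3b6, Cyp17a1, Hsd17b3, Insl3, Lhcgr, Tspo and Fdx1. They were named by their role, and every array probe whose annotated symbol is one of them was taken. Of the 10 genes, 9 had at least 1 named probe, and together they had 16 of the 45281 probes on the array. At least 1 probe was detected well enough to be kept for 6 of them, Star, Cyp11a1, Cyp17a1, Hsd17b3, Insl3 and Tspo, among 11565 genes measured in all.

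Testis RNA of 5 male mice of strain C57/129 was hybridised to 6 Illumina bead arrays. Of these mice, 3 received a daily dose of 50 mg/kg JQ1 between the ages of 6 and 12 weeks, a treatment of 6 weeks, and 2 control mice received vehicle over the same time. JQ1 is a small molecule that occupies the acetyl-lysine pocket of the BET bromodomain proteins, among them BRDT, which is made in male germ cells. The methods give the vehicle as DMSO diluted in a cyclodextrin carrier and the route as intraperitoneal injection. RNA of control mouse 1 was put on 2 arrays, a technical pair that was averaged and counted as 1 mouse. The RNA came from whole testis and not from isolated Leydig cells, so that a larger share of Leydig cells in the tissue and more RNA of a gene per Leydig cell cannot be told apart. Nothing in the labels describes litters, cages or array slides, and the p-values measure no spread beyond these 5 mice. The test used also draws the variance of each probe toward that of kept probes of similar signal. The p-values therefore do not rest on a probe's own spread alone.

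Luteinizing hormone acts on the Leydig cell through its receptor LHCGR and raises cyclic AMP, which drives the delivery of cholesterol into the mitochondrion. There CYP11A1 cuts the cholesterol side chain with electrons passed on by ferredoxin, and the product is turned into testosterone in the endoplasmic reticulum by a 3-beta-hydroxysteroid dehydrogenase, CYP17A1 and HSD17B3. The same cells secrete INSL3, a peptide hormone of the relaxin family that serves as a marker of their differentiation.

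The median raw signal of the arrays lay between 101.8 and 142.2, and 17799 to 20326 probes per array had a detection p-value under 0.05. The raw signals were background corrected, brought to a common distribution by quantile normalization and expressed as log2, so that each value is relative to the whole testis RNA on its array and is no amount per testis. A probe was kept where it was detected in at least 2 of the 5 mice, with control mouse 1 required on both of its arrays. A difference "passed" where limma's p was under 0.05 after Benjamini-Hochberg adjustment across the 20450 kept probes, and it was "called" where it also reached 2-fold. A gene with several kept probes is represented by its brightest.

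All 6 measured steroidogenesis genes were higher relative to the whole testis RNA in the JQ1-treated mice, by 1.81-fold for Tspo to 3.59-fold for Hsd17b3. Each passed the test by limma, against 25.4% of all measured genes that passed in this direction. None passed in the other direction, as 21.8% of all genes did. On a scale set by the Sertoli cell markers, which rose as well, only Hsd17b3 passed higher. The other 5 genes lay below 0 there at their brightest probes, and none of them passed. Without that scaling, the median log2 fold change of the 6 genes was 1.11, where the median over all genes was 0.01. Insl3, Cyp17a1, Star, Cyp11a1 and Hsd17b3 were called higher, against 8.57% of all genes, and none was called lower, against 2.89%. The count of 5 fell to 3 without control mouse 1 and to 3 without JQ1-treated mouse 3, in each case through Cyp11a1 and Cyp17a1. In each of the 6 genes every JQ1-treated mouse lay above both control mice, as in 34.4% of all genes. Star, detected on 1 of the 3 control arrays, and Hsd17b3, detected on 2 of them, met the filter only through the JQ1-treated mice, where they were higher. Their presence in these counts is therefore not independent of their direction, and the same holds for the dimmer Cyp11a1 probe in the counts of probes. Taken by probe, 9 of the 10 kept probes passed in this direction, against 22.0% of all kept probes, and 8 were called, against 7.10%. In the paper the testes were smaller after this treatment, and serum testosterone and luteinizing hormone did not differ significantly from control. The RNA levels here are no amounts per testis and do not measure hormone output.

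**Figure D1:**
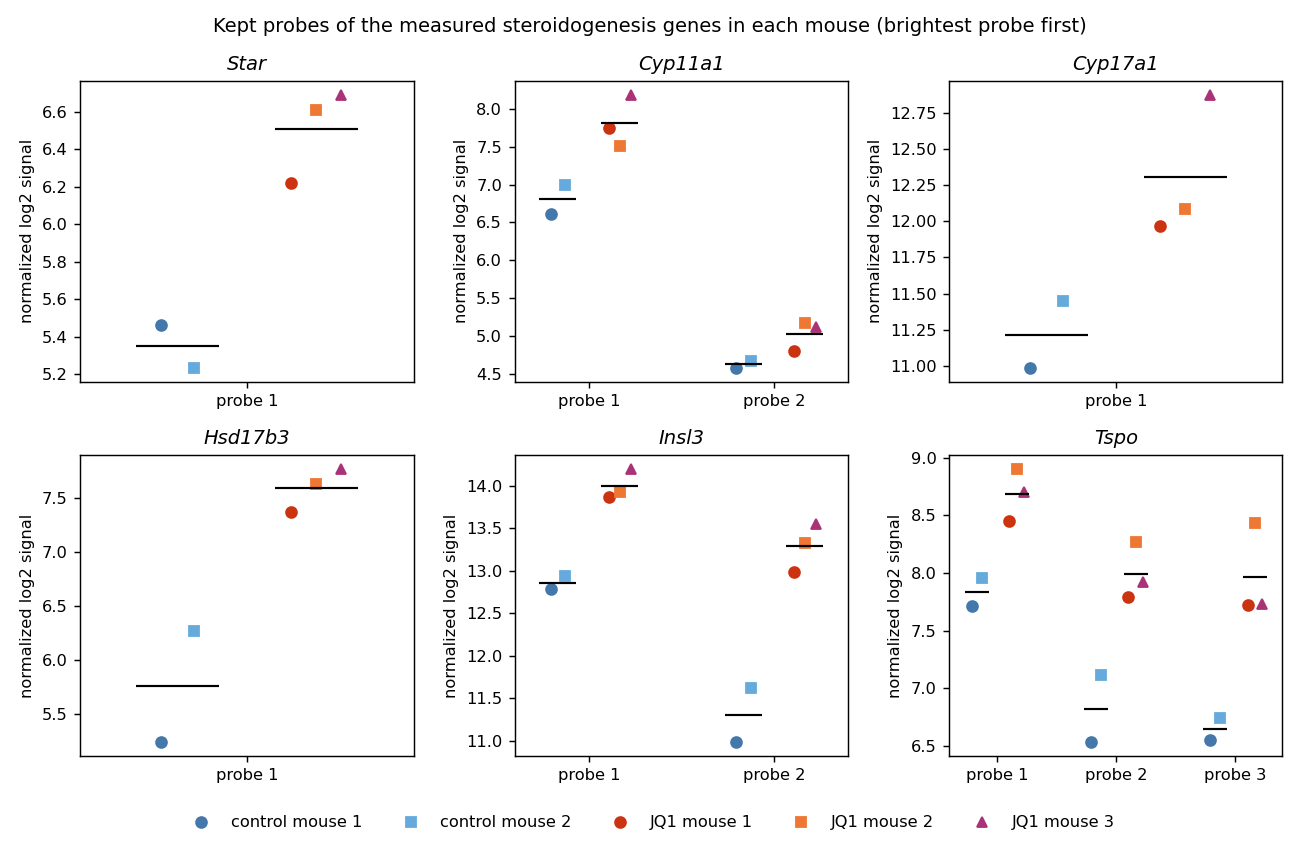
Normalized log2 signal (vertical axis) of the 10 kept probes of 6 genes in each of 5 mice; horizontal lines are group means (2 control mice, 3 JQ1-treated mice) and each panel has its own scale. In every panel the JQ1-treated mice lie above both control mice, and the gap is smallest at the second Cyp11a1 probe, which did not pass.

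The first group of genes brings cholesterol to the inner mitochondrial membrane. Star encodes the acute regulatory protein that carries out this step when the cell is stimulated. Its only probe (ILMN_2703598) gave 5.46 and 5.23 in control mice 1 and 2, and 6.22, 6.61 and 6.69 in JQ1-treated mice 1, 2 and 3, on the log2 scale. The JQ1-treated mice were all higher and the groups did not overlap. The log2 fold change was 1.16 with a standard error of 0.20 (adjusted p = 1.68e-04 by limma), or 2.23-fold. The probe was dim: it was detected in all 3 JQ1-treated mice, on the first array of control mouse 1 and on neither the second array nor the array of control mouse 2. The technical pair of control mouse 1 gave 5.78 and 5.15 at this probe, a difference of 0.63, and the raw signal of its first array, 176.4, lay within the 149.7 to 185.1 of the JQ1-treated mice. That array also had the highest median raw signal of the 6, 142.2, so the fold of Star rests in part on the background correction, and without that correction its log2 fold change was 0.48.

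Tspo encodes the translocator protein of the outer mitochondrial membrane, which binds cholesterol and is made in many other cell types as well. Its brightest probe (ILMN_2877069) gave 7.71 and 7.95 in the control mice and 8.46, 8.91 and 8.70 in the JQ1-treated mice. The groups did not overlap, and JQ1-treated mouse 2 was the highest. The log2 fold change was 0.85 with a standard error of 0.17 (adjusted p = 4.57e-04 by limma), below the 2-fold line. The other probes of the gene (ILMN_2727920 and ILMN_2727921) passed with larger changes, of 1.17 (adjusted p = 1.23e-04) and 1.32 (adjusted p = 5.98e-05), and both were past 2-fold. All 3 probes were detected on all 6 arrays, so Tspo rose at each of its probes but whether it was called depended on the probe.

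Cyp11a1 encodes the side-chain cleavage enzyme, the first enzyme of all steroid hormone synthesis. The brighter of its kept probes (ILMN_2634367) gave 6.61 and 7.00 in the control mice and 7.76, 7.51 and 8.19 in the JQ1-treated mice, and it was detected on all 6 arrays. Here JQ1-treated mouse 2 was the lowest of its group, and the groups did not overlap. The log2 fold change was 1.01 with a standard error of 0.20 (adjusted p = 5.31e-04 by limma), or 2.02-fold. It was below 2-fold without background correction (0.65), as the mean of the kept probes (0.71), without control mouse 1 (0.82), without JQ1-treated mouse 3 (0.83) and with control mouse 1 taken by its first array alone (0.91). The other kept probe (ILMN_2467151) gave 4.58 and 4.67 in the control mice and 4.79, 5.18 and 5.11 in the JQ1-treated mice. It was detected on no control array and in JQ1-treated mice 2 and 3 only, so no fold is given, and it did not pass (adjusted p = 0.126 by limma). A further probe of the gene was detected on no array.

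Fdx1, the ferredoxin that hands electrons to CYP11A1, had 1 probe, and it was detected on no array. Hsd3b1 and Hsd3b6, the 3-beta-hydroxysteroid dehydrogenases known from mouse Leydig cells, had 1 probe each, and these too were detected on no array. No level or fold is given for these 3 genes, and with the filter on detection removed none of them passed (adjusted p = 0.841, 0.681 and 0.779 by limma, in the same order). A signal at background does not show that a transcript was absent from the testis.

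Since the 3-beta-hydroxysteroid dehydrogenase genes form a family of similar sequences, the probes annotated to Hsd3b2, Hsd3b3, Hsd3b4 and Hsd3b5 were read too. Of 6 probes of Hsd3b2, 1 was detected on all arrays, with 9.54 and 10.15 in the control mice and 9.90, 9.72 and 9.69 in the JQ1-treated mice. The groups overlapped, and the log2 fold change was -0.07 with a standard error of 0.16 (adjusted p = 0.742 by limma). The other probes of Hsd3b2 and the probes of Hsd3b3 and Hsd3b5 were detected on no array. Hsd3b4 was the exception in direction: its probe gave 6.28 and 6.40 in the control mice, and 4.99, 4.73 and 4.65 in the JQ1-treated mice, where it was detected on no array. With background correction it was therefore at least 2.39-fold lower with JQ1 (adjusted p = 1.07e-05 by limma). That bound sets the mean of the control mice against the lowest signals detected on each JQ1 array. Without the correction the log2 change was -0.62, smaller than the bound, and with the authors' processed intensities it was -3.93. The probe was kept only through the control mice, where it was higher, so its place here is not independent of its direction. Which of the paralogs each probe measured could not be checked, since the probe sequences were not used here.

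Cyp17a1 encodes the enzyme with 17-alpha-hydroxylase and lyase activity that leads to the androgens. Its probe (ILMN_2874352) was detected on all 6 arrays and gave 10.99 and 11.45 in the control mice and 11.96, 12.08 and 12.87 in the JQ1-treated mice. The groups did not overlap, and JQ1-treated mouse 3 stood above the other two of its group. The log2 fold change was 1.09 with a standard error of 0.20 (adjusted p = 3.09e-04 by limma). Without JQ1-treated mouse 3 it was 0.81 and without control mouse 1 it was 0.86, which passed but was no longer 2-fold.

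Hsd17b3 encodes the testicular enzyme that reduces androstenedione to testosterone, the last step of the pathway. The kept probe (ILMN_1234235) gave 5.24 and 6.27 in control mice 1 and 2, and 7.38, 7.64 and 7.78 in JQ1-treated mice 1, 2 and 3. The groups did not overlap, and the control mice lay farther apart than at any other measured gene of the set. The log2 fold change was 1.84 with a standard error of 0.24 (adjusted p = 1.07e-05 by limma), or 3.59-fold, the largest of the 6 at their brightest probes with background correction. The probe was detected in every JQ1-treated mouse and in control mouse 2, but on only the second array of control mouse 1, whose arrays gave 4.93 and 5.54. Without control mouse 1 the log2 fold change was 1.32. Without background correction it was 0.98, below the 1.13 of Insl3 and the 1.06 of Cyp17a1. The other probes of the gene, 2 in number, were detected on no array.

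Insl3 was detected on all 6 arrays at both of its probes. The brighter one (ILMN_1249776) gave 12.78 and 12.94 in the control mice and 13.87, 13.93 and 14.20 in the JQ1-treated mice. The other probe (ILMN_2654385) gave 10.99 and 11.62 in the control mice and 12.98, 13.33 and 13.55 in the JQ1-treated mice. At both probes the groups were apart and JQ1-treated mouse 3 was the highest. The log2 fold change was 1.14 with a standard error of 0.12 at the brighter probe (adjusted p = 1.61e-06 by limma) and 1.98 with a standard error of 0.17 at the other (adjusted p = 2.05e-07). Both probes called the gene higher, with a size that differed between them, 2.20-fold and 3.95-fold. In the mouse annotation Insl3 lies within the span of Jak3, which encodes a tyrosine kinase of cytokine signalling. The kept probes of Jak3 did not pass, with log2 fold changes of 0.14 (adjusted p = 0.600 by limma) and -0.06 (adjusted p = 0.814).

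Lhcgr, the receptor of luteinizing hormone, had no probe with its symbol, and it is not analysed here.

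Promoters of the 10 genes were read for short motifs of regulators known for this pathway. The RefSeq promoter table (GRCm38.p6) matched 7 of them, in 8 windows. Cyp11a1, Hsd17b3 and Insl3 are the measured genes among these 7, the others being Hsd3b1, Hsd3b6, Lhcgr and Fdx1, and Star, Cyp17a1 and Tspo were not searched. In each window the 250 bases before the start were searched on both strands. The motifs were AAGGTC, the core of the site of NR5A1, the nuclear receptor that drives steroidogenic genes, and TGACG, part of the cyclic AMP response element. They were chosen after the sequences had been seen. AAGGTC was found in Insl3, in both directions, and in no other window, while 10.6% of the 32851 promoters in the table hold it. TGACG was found once, in a window of Cyp11a1, while 17.8% of all promoters hold it. These stretches are shown because they lie before the start of genes that were called higher, and the motif, or its reverse complement, is in capitals. A match is a run of letters and not a measured site.
Insl3, chr8:71689104-71689133, plus strand, motif 136 bases before the start: ggagaggacttcAAGGTCccaagctggaca
Insl3, chr8:71689150-71689179, plus strand, motif 90 bases before the start: gactcgagcctcGACCTTttgggtgctgct
Cyp11a1, chr9:57997962-57997991, plus strand, motif 50 bases before the start: ctaaccctccctCGTCAgtaccccagcaac

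Across the mice, the genes kept much the same order. Control mouse 1 was the lower control at Cyp11a1, Cyp17a1, Hsd17b3, Insl3 and Tspo, and control mouse 2 was the lower at Star. JQ1-treated mouse 3 was the highest mouse at each of the 6 genes but Tspo, and JQ1-treated mouse 1 the lowest of its group at each but Cyp11a1. The median change from the mean of the control mice was 0.91, 1.07 and 1.36 in JQ1-treated mice 1, 2 and 3. These genes share the same arrays and tissue pieces, so their order across mice is 1 observation and not 6.

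To compare the genes with one another, the log2 difference of each pair was taken within each mouse and its change between the groups was tested over mice. Levels of different probes were not compared. Of the 15 pairs, 4 did not overlap between the groups, and each of them holds Hsd17b3. Hsd17b3 rose more than Tspo by 0.99, than Cyp11a1 by 0.83, than Cyp17a1 by 0.75 and than Insl3 by 0.71, on the log2 scale. Against Star the difference was 0.68 and the groups overlapped. With 2 mice against 3 the exact permutation test, two-sided, cannot go below p = 0.1, which 3 pairs reached, and after adjustment over the pairs no p was below 0.5. The order of the changes also depended on the processing and the probe. Without background correction Hsd17b3 (0.98) changed less than Insl3 (1.13) and Cyp17a1 (1.06), without control mouse 1 it was close to Star (1.32 against 1.27), and at its other probe Insl3 rose by 1.98. At the other 10 pairs, those without Hsd17b3, the groups overlapped, and the differences lay between -0.12 and 0.30.

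**Figure D2:**
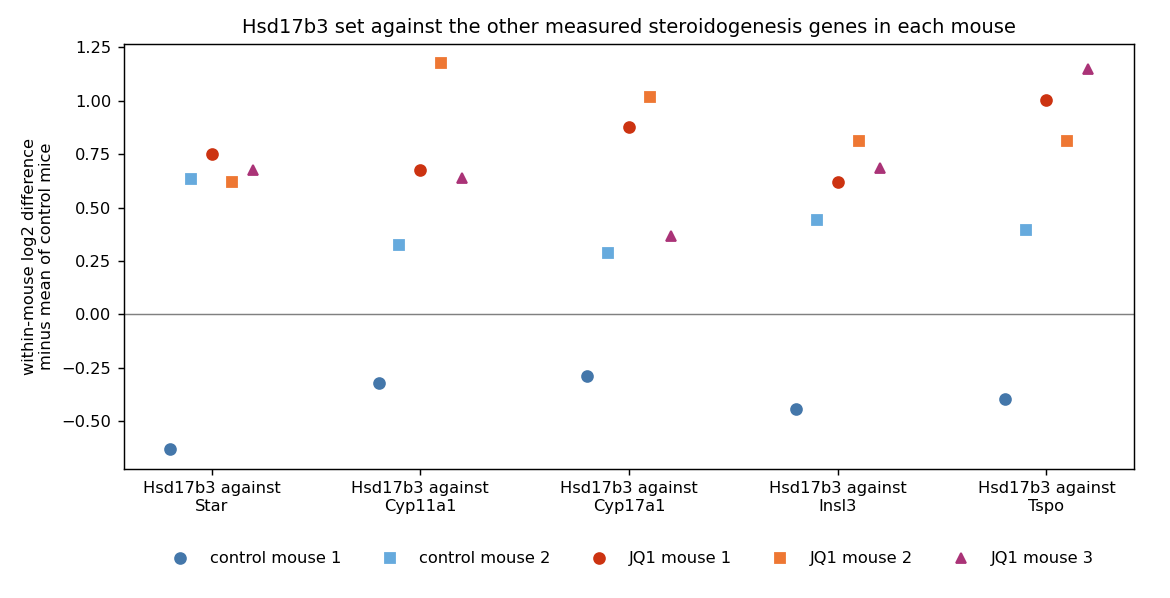
Change of the log2 difference between Hsd17b3 and each other measured gene within each mouse (vertical axis), relative to the mean of the 2 control mice. The 3 JQ1-treated mice lie above both control mice for Cyp11a1, Cyp17a1, Insl3 and Tspo but not for Star, and control mouse 1 is the lowest throughout.

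The cells that could add to the signal in whole testis were followed with lists of markers. Sertoli cell markers rose too: 10 of 12 measured passed higher, against the 25.4% of all genes, and none lower, with a median log2 fold change of 1.29 and examples in Sox9 (1.70, adjusted p = 6.65e-08 by limma) and Cldn11 (1.47, adjusted p = 8.02e-08). Of the 10, Gata1 was detected on no control array and Ctsl on 2 of the 3, so both were kept only through the JQ1-treated mice. Both are also among the markers used for the scaling described below. Of the macrophage markers 6 of 8 passed higher, with a median of 0.82, among them Lyz2 (1.40, adjusted p = 1.03e-03) and C1qb (0.99, adjusted p = 5.37e-04). Without control mouse 1 only 3 of the 8 passed, and Lyz2 was 0.78 (adjusted p = 0.0555 by limma). Cd14, another of the 6, was detected on 1 of the 3 control arrays and kept only through the JQ1-treated mice. Of the peritubular and stromal markers 4 of 9 passed higher, with a median of 0.34, and of the endothelial markers 1 of 7, a share below that of all genes, with a median of 0.21. The mean log2 level of the Sertoli list was 8.09 and 8.16 in the control mice and 9.20 to 9.35 in the JQ1-treated mice, and that of the macrophage list 6.63 and 7.07 against 7.25 to 8.00. Of the pachytene spermatocyte markers 3 of 6 passed lower, against the 21.8% of all genes, with a median of -0.27, but only 1 did without control mouse 1 and 1 without JQ1-treated mouse 3. Of the spermatid markers none of 8 passed in either direction, with a median of -0.07. That median was 0.08 with cyclic loess normalization, where 2 passed higher, and -0.17 with median scaling, where 2 passed lower. A change may be understated at the brightest probes: Ldhc, a pachytene marker, gave an equal 14.98 in all 3 JQ1-treated mice, near the top of the scale. The paper reports lower Akap4 and, in sections, fewer spermatids after this treatment. It followed its array results with RT-PCR, read relative to Gapdh. Akap4 was -0.23 here (adjusted p = 0.156 by limma), on the arrays and relative to the whole testis RNA. The measures differ, and the size that the paper gives for Akap4 was not compared.

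When each array was shifted to an equal mean of the Sertoli markers, the median over all genes became -1.17 and that of the 6 genes -0.06, with Hsd17b3 at 0.67, Star at -0.02, Insl3 at -0.04, Cyp17a1 at -0.08, Cyp11a1 at -0.16 and Tspo at -0.32. Only Hsd17b3 passed on that scale, and the others, with adjusted p from 0.0823 to 0.944 by limma, passed in neither direction. The scaling shifts every gene of an array alike, so the distance of the 6 genes from the median of all genes could not change. Only the brightest probe of each gene was read there. The other Insl3 probe, which rose by 1.98 without the scaling, was not. The part of the tissue's cell makeup in the rise of these genes was not tested.

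**Figure D3:**
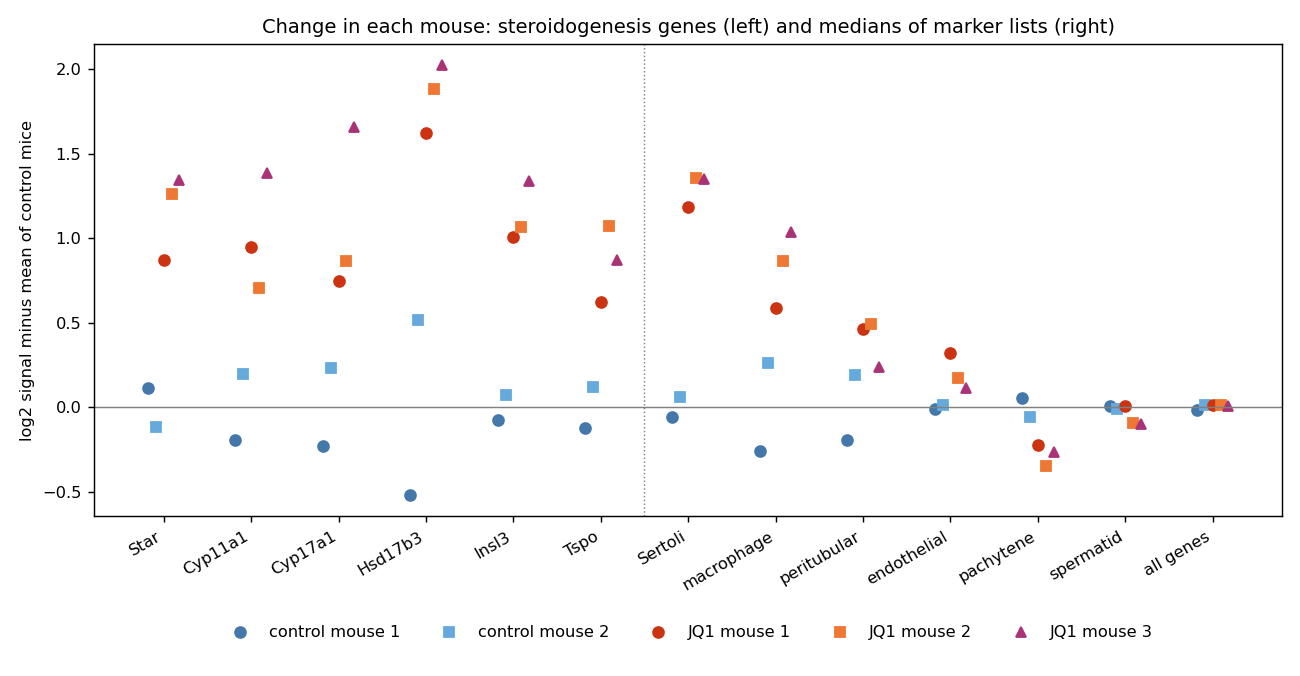
Log2 signal of each mouse minus the mean of the 2 control mice (vertical axis), for the 6 measured genes at left and as the median of each marker list and of all genes at right. The steroidogenesis genes and the median of the Sertoli markers both lie higher in the 3 JQ1-treated mice than in the control mice, and the median of all genes stays near 0.

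The adrenal cortex makes steroids with some of the same enzymes, and its markers were read as a check on the label. Cyp21a1, Cyp11b1 and Mc2r, its defining genes, had no kept probe. Cyp11b2, the aldosterone synthase, gave -0.21 (adjusted p = 0.436 by limma). Mrap, an accessory protein of the ACTH receptor, gave 5.65 and 6.18 in the control mice and 7.26, 7.72 and 7.93 in the JQ1-treated mice, without overlap, a log2 fold change of 1.72 (adjusted p = 6.81e-06). It was detected on 2 of the 3 control arrays, in control mouse 2 and on 1 array of control mouse 1, and so was kept only through the JQ1-treated mice, and without background correction its change was 0.95. Among the markers of the Leydig label itself, Insl3 and Cyp17a1 were detected on all 6 arrays, whereas Star and Hsd17b3 were detected on only some of the control arrays and Hsd3b1, Hsd3b6 and Fdx1 were not detected at all.

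Other genes of the pathway are given by list, to be read against the 25.4% of all genes that passed higher and the 21.8% that passed lower. Of the partners that supply electrons or cofactor, 4 of 5 measured passed higher and none lower, with a median log2 fold change of 0.81. They were H6pd, which makes NADPH in the endoplasmic reticulum (1.08, adjusted p = 8.17e-05 by limma), the cytochrome b5 reductase Cyb5r3 (0.98, adjusted p = 2.59e-04), Cyb5b (0.81, adjusted p = 8.45e-05) and Cyb5a (0.68, adjusted p = 9.60e-03), the cytochrome b5 that aids the lyase step of CYP17A1. Cyb5a did not pass without control mouse 2 (adjusted p = 0.0523 by limma) or without JQ1-treated mouse 3 (0.0513). Fdxr and Por, the reductases that feed CYP11A1 and CYP17A1, were not measured. Of the other steroid enzymes 6 of 11 passed higher and 1 lower, with a median of 0.66. The mitochondrial dehydrogenase Hsd17b10 (1.46, adjusted p = 1.00e-05), the microsomal epoxide hydrolase Ephx1 (1.36, adjusted p = 2.01e-05) and Hsd17b7, which also serves cholesterol synthesis (1.09, adjusted p = 3.95e-04), led them, and the 1 that fell was Hsd3b4. Hsd3b4 was kept only through the control mice, so the count of 1 lower is not independent of direction.

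Of the genes that supply cholesterol to the mitochondrion 7 of 11 passed higher and none lower, with a median of 0.63. Vdac1, the channel of the outer membrane, rose by 1.42 (adjusted p = 2.27e-06 by limma) and Dbi, whose product is a ligand of TSPO, by 1.05 (adjusted p = 1.36e-05). Stard5, of the same lipid-transfer family as Star, rose by 1.24 (adjusted p = 7.37e-05, and by 0.65 without background correction) and the mitochondrial ATPase Atad3a by 1.01 (adjusted p = 3.14e-05). Many of these genes are used in most cells, and their values are those of the whole testis.

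Upstream of the enzymes, the genes of luteinizing hormone and cyclic AMP signalling were split, with 5 of 10 higher, 1 lower and a median of 0.35. Those that rose most were the protein kinase A subunits Prkacb (1.25, adjusted p = 1.64e-06 by limma), Prkar2b (1.06, adjusted p = 1.65e-04) and Prkar1a (0.92, adjusted p = 6.48e-05), and Gnas, the stimulatory G protein alpha subunit (1.09, adjusted p = 7.72e-05). The 1 that fell was Crem (-0.44, adjusted p = 7.47e-03), and without control mouse 1 no gene of this list passed lower. Of 16 transcription factors of the Leydig cell only 6 were measured, and 4 passed higher: Cebpb (1.30, adjusted p = 1.70e-04), Jun (0.88, adjusted p = 1.61e-03), Gata6 (0.43, adjusted p = 0.0333) and Fos. Fos was detected on no control array and, with background correction, was at least 1.34-fold higher with JQ1 (adjusted p = 4.31e-03). Without the correction its log2 change was 0.31, smaller than that bound, and with the authors' processed intensities it was 2.14. Jun was detected on 2 of the 3 control arrays, and its change was 0.35 without background correction. Both Fos and Jun were kept only through the JQ1-treated mice, so the count of 4 is not independent of direction. Gata6 did not pass without control mouse 1 (adjusted p = 0.271 by limma), JQ1-treated mouse 2 (0.110) or JQ1-treated mouse 3 (0.107). Nr5a1, Gata4, Nr4a1 and Nr0b1, known regulators of steroidogenic genes, had no kept probe.

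Signals of Leydig cell differentiation included the receptor genes Igf1r (1.79, adjusted p = 2.18e-07 by limma) and Pdgfra (1.58, adjusted p = 2.81e-06) among 3 of 6 that passed higher, and Pdgfa, a ligand of PDGFRA, as the 1 that fell (-0.76, adjusted p = 6.35e-04). As the mean of their kept probes, which differed, Igf1r was 0.90 and Pdgfra 0.68, and both passed below 2-fold. The third was Ptch1, the hedgehog receptor (0.74, adjusted p = 4.11e-03). Of other genes known from Leydig cells 3 of 6 passed higher: the fatty acid carrier Fabp3 (1.81, adjusted p = 1.88e-07), the retinaldehyde dehydrogenase Aldh1a1 (1.57, adjusted p = 1.93e-05) and the adhesion molecule Vcam1 (0.76, adjusted p = 6.18e-03), whose groups overlapped. Vcam1 did not pass without control mouse 1 (adjusted p = 0.155 by limma). The lists had medians of 0.60 and 0.58.

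Downstream, 3 of 5 measured genes of androgen or INSL3 action passed higher and 1 lower. Rhox5, a homeobox gene of Sertoli cells that androgen induces, rose by 1.32 (adjusted p = 9.42e-06 by limma), Drd4 by 1.82 (adjusted p = 4.34e-07) and the protease inhibitor Eppin by 1.09 (adjusted p = 1.03e-05). Rxfp2, the receptor of INSL3, gave 8.32 and 8.57 in the control mice and 7.40, 7.45 and 7.17 in the JQ1-treated mice. It fell by 1.10 on the log2 scale (adjusted p = 4.45e-05), without overlap, while Insl3 itself rose. These are values of the whole testis, and a response of these genes to either hormone was not tested. Relative to the Sertoli markers the medians of all 8 of these related lists were below 0. They ran from -0.83 for luteinizing hormone and cyclic AMP signalling to -0.08 for androgen and INSL3 action. Their distance from the median of all genes, -1.17 on that scale, could not be changed by the scaling.

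**Figure D4:**
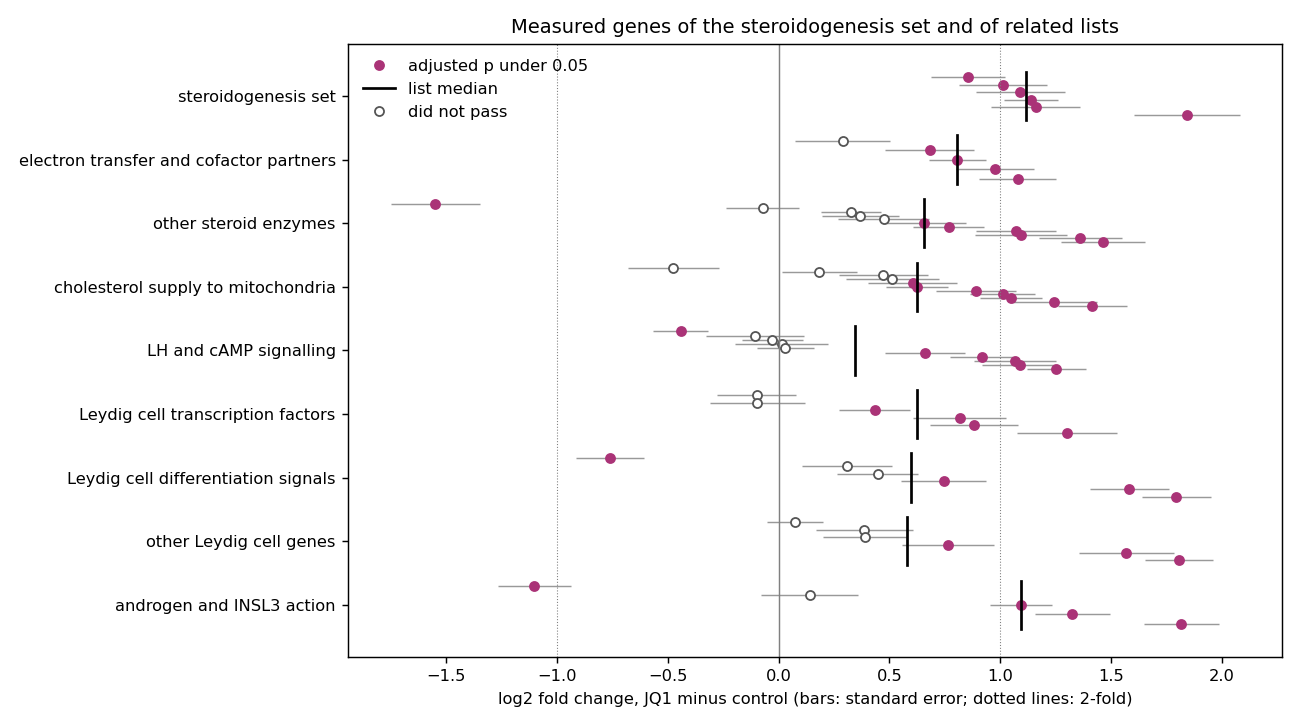
Log2 fold change, JQ1 minus control (horizontal axis, bars are standard errors), of each measured gene of the steroidogenesis set and of 8 related lists; filled points passed by limma, open points did not, and vertical bars are list medians. All 6 steroidogenesis genes lie between 0.85 and 1.84, and the points that fell with JQ1 include Hsd3b4, Pdgfa and Rxfp2.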

How the data were processed

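Per the file headers, the authors deposited a raw signal intensity and a detection p-value for each probe of each array, together with intensities that the methods describe as background-corrected and normalized. The sources used here give neither the array software nor the order of those steps. The raw intensity was the starting point. Background was removed with limma 3.58.1 in R 4.3.3 (normexp from the detection p-values, offset 16), followed by quantile normalization, log2 transformation and averaging of the technical pair. The 20450 kept probes were fitted by linear models, whose variances were moderated along an intensity trend. The fit was also run on simulated data with independent noise at each probe. That setting is simpler than these arrays, and no result here rests on it. Probe symbols come from the platform annotation: 34885 probes have 1 symbol, 18 several and 10378 none. The annotation of GRCm38.p6 was used for names and neighbouring genes.

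The 10 genes and the gene lists were chosen with earlier results of these data known. Named are the 10 genes with every kept probe, Hsd3b2 to Hsd3b5, and of each other list up to 4 passed genes with the largest change, or its 2 brightest where fewer than 2 passed. Jak3 and Crem were added after their values were seen. Alternatives were other background correction, normalization, scaling, filters, variance model, probe choice, the authors' processed intensities with values under 1 set to 1, single mice or arrays left out, and a replicate block. A bound replaces a fold where a group was detected on no array. It sets the mean of the brighter group against the higher, per array, of the lowest detected signal and the probe's own. The number of mice limits the precision.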

Additional observations from a re-analysis of the deposited data

How the results depend on the processing

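All 6 steroidogenesis genes passed higher, and none lower, under every alternative except the scaling to Sertoli cell markers, where 1 passed higher, 0 were called, the median log2 fold change was -0.0612 and Star (-0.0155), Cyp11a1 (-0.16), Cyp17a1 (-0.0848), Insl3 (-0.0376) and Tspo (-0.32) turned below 0. None of those below 0 passed there, and that scaling takes the rise of the Sertoli markers out of every gene. The number past 2-fold, 5 as reported, was less stable: 2 without background correction (Insl3 and Cyp17a1, with a median of 0.82) and 3 with median scaling. Leaving out 1 mouse gave 3 to 5, with 3 without control mouse 1 and 3 without JQ1-treated mouse 3 (Star, Hsd17b3 and Insl3 in each). The authors' processed intensities gave 5, and taking control mouse 1 by its first array alone gave 4. The replicate number of the labels as a replicate block gave 3. The samples share only a number (correlation of same-numbered deviations 0.15 and 0.02), and JQ1-treated mouse 3 has no partner and drops out of that fit. With the block the 6 genes still passed. Of the genes of other lists Gata6 did not (adjusted p = 0.0614 by limma), nor did the pachytene markers Hspa2 (0.125) and Spag6 (0.0729). Over all genes, 991 were called higher and 334 lower, against 429 and 72 without background correction, 12 and 7005 with the Sertoli scaling and 1467 and 540 with the authors' processed intensities. The share of called genes that were higher was 74.8%, and 85.6% without background correction and 0.171% with the Sertoli scaling. Of the genes of other lists Prm1 turned from -0.04 to 0.27 with cyclic loess and passed there (adjusted p = 0.0447 by limma), as did Odf1 at 0.31 (0.0180). Hspa2 did not pass with cyclic loess (0.493). The alternatives for these genes and lists were added after the data were seen, and the cause was not tested. Single genes of those lists were not run under the Sertoli scaling. Star, Hsd17b3 and the second Cyp11a1 probe lay near background in control mice, which limits their folds.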
